A study of Mus musculus with 25 samples.

Results

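Most Prss genes encode serine proteases of the trypsin fold. Members were taken here as every gene symbol made of Prss and a number. This gave 34 of the 29244 genes in the count tables of Drop-seq libraries from mouse testis. Drop-seq captures single cells in droplets, tags the 3′ end of each polyadenylated transcript with a barcode of the cell and a molecular identifier, and counts each identifier (UMI) once. The 34 members held 102540 of 65063387 UMIs, and 11 of them held 35 UMIs or fewer over all 25 libraries. Levels are given as CPM, a gene's UMIs divided by all UMIs of the sample or class and scaled in the usual way, and because only 3′ ends were counted they were compared between samples and classes and not between genes.

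Serine proteases cleave proteins at an active-site serine, and most are made as inactive precursors. Spermatogonia enter meiosis as leptotene and zygotene spermatocytes, pair their chromosomes through pachytene, pass the meiotic divisions and become haploid round spermatids, which elongate into sperm. The acrosome, the vesicle over the sperm nucleus, is built in round spermatids and holds proteases, of which acrosin is the best known. Other serine proteases act on the sperm surface, where they bear on the maturation of ADAM3, a sperm protein needed for passage through the oviduct, and several members of the Prss family are known to be made in the testis alone or nearly so.

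The 11 wild-type (WT) libraries came from C57BL/6 mice (C57BL/6J in the study's methods), the youngest 3 months and 1 day and the oldest 9 months and 14 days old. Mlh3-/- mice (6 libraries, the youngest 2 months and 21 days and the oldest 8 months and 30 days old), which lack a mismatch repair protein needed for crossovers, and Cul4a-/- mice (2 libraries), which lack a ubiquitin ligase scaffold, have a B6;129 background in the labels, although the study's methods name the Mlh3 line B6.129-Mlh3tm1Lpkn/J. Both thus differed from WT mice in strain as well as in the deleted gene. CNP mice (2 libraries) were C57BL/6 and carried an eGFP BAC TRAP transgene. The Cul4a mice were 1 month and 18 or 21 days old and the CNP mice 2 months and 14 or 16 days old per the labels, while the sample list of the study gives these ages the other way round. Of the 4 sorted populations, with 1 library each, spermatogonia were GFP-positive cells of a Pou5f1-EGFP line, pooled from 5 litter mates at day 7. The study's methods name this line B6;CBA-Tg(Pou5f1-EGFP)2Mnn/J. Primary spermatocytes, secondary spermatocytes and spermatids were WT cells of mice aged 2 months and 21 days, sorted on Hoechst staining (C57BL/6J in the methods). The sorted spermatogonia thus differed from the other sorts in strain as well as in age, and also in dissociation, as given below. The transcripts of the deleted genes did not fall in their own strains (Mlh3 26.2 to 86.5 CPM in Mlh3-/- against 10.7 to 72.9 CPM in WT testis, Cul4a 49.0 to 54.5 against 5.60 to 45.7 CPM). Counting at 3′ ends can miss a deletion elsewhere in a gene, and whether it did here was not tested, so these levels do not check the labels. The study names differential expression of Mlh3 between WT and Mlh3-/- cells of its clusters, without a direction. The levels given here are sums over whole testis.

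Library totals were 357235 to 3829176 UMIs for WT, 450745 to 6340116 for Mlh3, 9691555 to 9745302 for Cul4a, 775386 to 1054964 for CNP and 107117 to 1168498 for sorted libraries. Of the 48642 barcodes, 36622 passed the filters on UMIs, genes and mitochondrial rRNA and were clustered without the Prss genes. The germ-cell clusters used below were named from marker genes as like spermatocytes in leptotene/zygotene, in pachytene or at the division, or like spermatids that were round or elongating, and are called by that stage alone. Doublets were not removed, and 430 barcodes occurred in more than 1 library. Clusters that missed any of the naming rules stayed unnamed, and held 17183 WT cells and 48.6% of the members' WT UMIs. The rules covered cluster size, marker genes, leading genes, RNA content and matches to other classes. Unnamed clusters with 766, 435, 415, 412 and 193 WT cells came closest to the division class by their markers, beside 1210 WT cells in the named class. Another unnamed cluster, with 283 WT and 281 Mlh3 cells, came closest to pachytene and next to the division. Beside it, the named pachytene class held 573 WT and 916 Mlh3 cells. The cells of these unnamed clusters are not in the classes below. WT replicates 1 and 2 were dissociated enzymatically, as were the sorted spermatogonia per the study, and the other libraries mechanically. Libraries were sequenced on HiSeq or MiSeq instruments, a difference that the study proposes as the source of a technical component. Among the sorted libraries, 157 of 188 cells sorted as primary spermatocytes fell in a cluster with the markers of erythroid cells, and 116 of 154 cells sorted as secondary spermatocytes fell in the spermatid classes, while 261 of 291 sorted spermatids and 212 of 225 sorted spermatogonia fell in the classes of their labels.

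Several members lie side by side in the genome (GRCm38, GENCODE vM21). Prss42, Prss44, Prss43, Prss45, Prss46 and Prss50 fill chr9:110798166-110864629 (66.5 kb) with no other protein-coding gene between them. Prss33, Prss41, Prss32, Prss21, Prss30 and Prss22 lie within chr17:23833347-23998100, Prss55, Prss51 and Prss52 within chr14:64075438-64113755, Prss39 and Prss40 within chr1:34498410-34560943, and Prss53, Prss8 and Prss36 within chr7:127885841-127946725. Prss51 and Prss55 overlap on opposite strands, as do Prss41 and Prss32, so their UMIs are separate only as far as the counting used strand. Near-identical 3′ ends could also split reads: 4.31% of the 30-base words in the 3′ end of Prss39 recur in Prss40, and 8.63% of those of Prss43 and 21% of those of Prss2 recur in other genes.

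RefSeq promoters (GRCm38.p6, 250 bases before to 50 after the start) were found for 24 of the 34 members. The following 6 are shown because they come from the members with the most distinct courses described below, 4 of them neighbours on chromosome 9 and the other 2 spermatid genes of chromosome 6. They span chr9:110857714-110858013 (Prss50), chr9:110797935-110798234 (Prss42), chr9:110834338-110834637 (Prss45) and chr9:110844256-110844555 (Prss46), all on the + strand, and chr6:40519459-40519758 (Prss37) and chr6:40900338-40900637 (Prss58), both on the - strand. Capitals mark the MYB motif (CAACNG or TAACNG on either strand).
Prss50: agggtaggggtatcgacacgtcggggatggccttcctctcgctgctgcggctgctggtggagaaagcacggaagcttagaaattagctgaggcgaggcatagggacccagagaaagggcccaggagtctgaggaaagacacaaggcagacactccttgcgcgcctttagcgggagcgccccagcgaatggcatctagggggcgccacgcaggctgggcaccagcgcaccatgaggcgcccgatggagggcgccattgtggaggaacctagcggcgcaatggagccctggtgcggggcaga
Prss42: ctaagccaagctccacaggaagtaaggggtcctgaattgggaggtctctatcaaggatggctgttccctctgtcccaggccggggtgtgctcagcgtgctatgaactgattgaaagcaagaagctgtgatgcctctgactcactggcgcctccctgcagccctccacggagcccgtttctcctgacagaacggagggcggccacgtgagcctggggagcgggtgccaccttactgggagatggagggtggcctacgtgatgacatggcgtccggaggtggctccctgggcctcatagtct
Prss45: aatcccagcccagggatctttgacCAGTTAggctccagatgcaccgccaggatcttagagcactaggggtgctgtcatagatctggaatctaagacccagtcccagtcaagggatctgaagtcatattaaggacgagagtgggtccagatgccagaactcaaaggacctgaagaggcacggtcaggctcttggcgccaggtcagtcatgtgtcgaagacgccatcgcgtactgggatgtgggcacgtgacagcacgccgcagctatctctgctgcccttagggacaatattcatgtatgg
Prss46: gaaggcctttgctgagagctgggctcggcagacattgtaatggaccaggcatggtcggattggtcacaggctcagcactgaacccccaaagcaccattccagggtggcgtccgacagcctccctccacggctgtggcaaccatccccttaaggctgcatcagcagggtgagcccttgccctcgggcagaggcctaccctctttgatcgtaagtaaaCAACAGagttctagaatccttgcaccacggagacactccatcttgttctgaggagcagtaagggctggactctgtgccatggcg
Prss37: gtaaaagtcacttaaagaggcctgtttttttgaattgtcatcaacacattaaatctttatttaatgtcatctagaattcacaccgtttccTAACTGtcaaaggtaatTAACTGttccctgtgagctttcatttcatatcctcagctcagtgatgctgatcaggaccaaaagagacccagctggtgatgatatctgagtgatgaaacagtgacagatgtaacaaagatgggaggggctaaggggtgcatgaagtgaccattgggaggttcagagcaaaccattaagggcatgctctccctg
Prss58: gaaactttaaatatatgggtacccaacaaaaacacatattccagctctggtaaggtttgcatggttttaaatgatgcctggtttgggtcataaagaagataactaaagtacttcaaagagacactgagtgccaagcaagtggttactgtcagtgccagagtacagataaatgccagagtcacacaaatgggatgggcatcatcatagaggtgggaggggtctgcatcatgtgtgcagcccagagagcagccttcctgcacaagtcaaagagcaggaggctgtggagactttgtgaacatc

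The 4 promoters of chromosome 9 held more CG dinucleotides than the 2 of chromosome 6: 21 in Prss50, 12 in Prss42, 11 in Prss45 and 9 in Prss46, against 1 in Prss37 and 0 in Prss58. Their GC content was 64%, 60.7%, 54.3%, 57.7%, 41.7% and 45% in the same order. Of the 31 promoter windows of the 24 members, 15 held the MYB motif, while 49.7% of all 32851 promoters did. The CREB/CREM core motif TGACGT was present in 1 member window (that of Prss29), against 7.51% of all promoters, and the RFX core motif GTTGCC in 3, among them Prss46 at position -116, against 12.5%. These matches describe the letters of these windows only.

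In WT testis the members rose at different steps, so that each stage from leptotene/zygotene to elongating spermatids held the highest mean CPM of some of them. By mean CPM, Prss50 was highest in leptotene/zygotene, Prss43, Prss44, Prss45 and Prss48 in pachytene, Prss42, Prss56, Prss21, Prss46, Prss47, Prss39 and Prss40 at the meiotic division, Prss54 and Prss23 in round spermatids, and Prss37, Prss51, Prss52, Prss55 and Prss58 in elongating spermatids. For Prss39, Prss40 and Prss46 the place at the division holds in CPM only, since their fitted changes to round spermatids were near 0 and those of Prss39 and Prss40 to elongating spermatids were upward, as given below. The place of Prss37 rests on class means, since a finer cluster of round spermatids stood above the elongating clusters given below. Values are means ± SD over the WT libraries with at least 10 cells of a class: 4 libraries (65 cells) for leptotene/zygotene, 9 (570 cells) for pachytene, 10 (1207 cells) for division, 11 (2416 cells) for round and 11 (3264 cells) for elongating spermatids. Neighbouring stages were compared by edgeR's quasi-likelihood test on counts summed per library and class, with the library as a block, and 23 members passed the count filter. Since a class is named from other genes of the same cells, the shares of all genes called, given beside each count, include genes that built the classes.

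**Figure D1:**
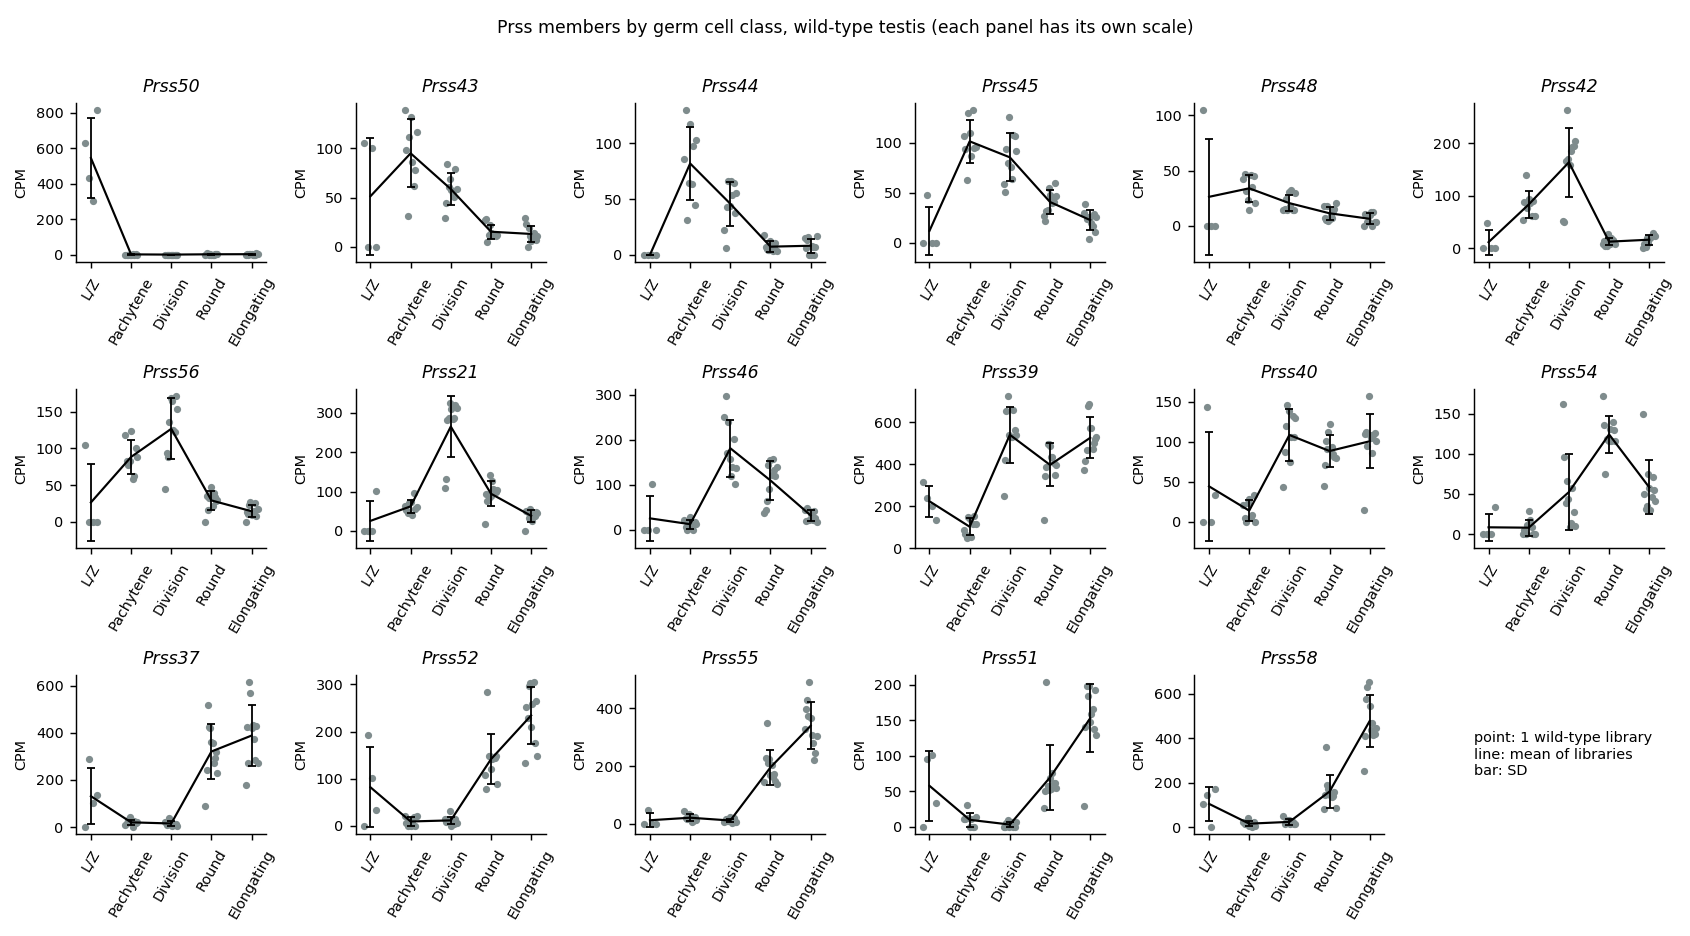
Level of 17 members in CPM (y axis, linear, own scale in each panel) by WT class (x axis, L/Z meaning leptotene/zygotene). Each point is 1 library with at least 10 cells of the class, the line is the mean and the bar its SD. Prss50 stands at 302 to 818 CPM in L/Z and near 0 afterwards, Prss42, Prss21 and Prss46 rise to the division and fall, and Prss37, Prss55 and Prss58 are higher in round and elongating spermatids than in pachytene or at the division, with Prss37 and Prss58 also at 131 and 105 CPM in L/Z.

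**Figure D2:**
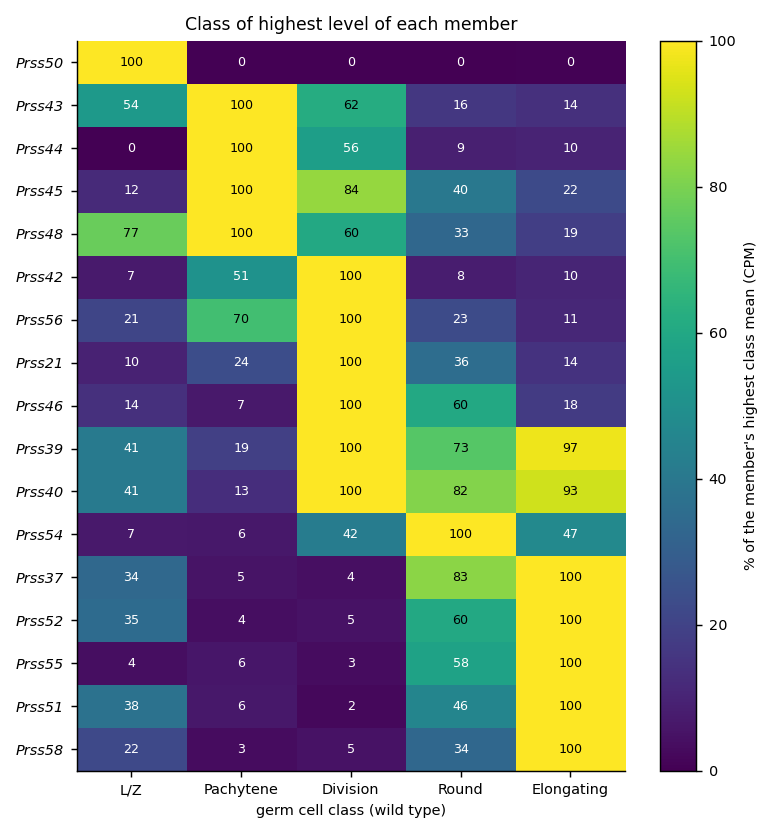
Mean level of 17 members in each WT class as a percent of that member's highest class mean (colour scale from 0 to 100%). Rows are members and columns the classes in developmental order. The cells at 100% step from left to right, from Prss50 in L/Z to Prss58 in elongating spermatids, while Prss39 and Prss40 return to 97.3% and 92.8% in elongating spermatids.

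Prss50, also known as TSP50, was far higher in leptotene/zygotene than in any later class. It stood at 302, 432, 630 and 818 CPM in WT replicates 10, 8, 4 and 11. The pachytene libraries held 0 to 5.78 CPM, those of division 0 CPM throughout, and those of round and elongating spermatids at most 7.13 and 7.38 CPM. No leptotene/zygotene library overlapped any library of a later class. The fall to pachytene was -7.12 ± 0.68 (log2 fold change ± SE, adjusted p = 1.16e-22) and was seen in 4 of 4 libraries that held both classes. SE here and below is the size of the log2 fold change divided by the square root of the test's F statistic. It is approximate, above all where a group holds 0 UMIs. A further call, higher in round spermatids than at division (2.13 ± 0.82, adjusted p = 0.022), rests on 6 UMIs against 0 and was lost in DESeq2 (adjusted p = 0.205).

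Prss50 was also measured in the leptotene/zygotene cells of other strains. It stood at 933 and 870 CPM in the Cul4a libraries and 947, 578 and 198 CPM in 3 Mlh3 libraries. A CNP library of 10 such cells held no Prss50 UMI among 3751 UMIs, where 3 UMIs would be 799.8 CPM. The Mlh3 values overlap the WT range, with 1 library below all WT libraries, and the Cul4a values lie above it, differences that were not tested in this class. The 29 WT spermatogonia-like cells held no Prss50 UMI among 45343 UMIs, where 3 UMIs would be 66.2 CPM.

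Prss42, Prss43 and Prss44, known as the testis-specific proteases TESSP2, TESSP3 and TESSP4, lie beside Prss45 on chromosome 9, and Prss42, Prss44 and Prss45 were first called higher in pachytene. Prss44 held no UMI in WT leptotene/zygotene and 81.8 ± 33.1 CPM in pachytene (lowest 31.2, median 85.6, highest 130). Prss45 went from 12.0 to 101 ± 21.7 CPM (62.4, 95.7 and 133), and Prss42 from 12.0 to 83.7 ± 25.8 CPM (53.5, 86.6 and 140). Each was higher in pachytene in 4 of 4 libraries. Prss56 went from 26.3 to 88.3 ± 22.6 CPM, higher in 3 of 4 libraries and lower in 1. The leptotene/zygotene libraries held 13 to 21 cells each, and in 1 of them 1 UMI (of Prss33) made 34.1 CPM. Prss42 and Prss45 ranged there from 0 to 48.0 CPM and Prss56 from 0 to 105 CPM. At this depth a gene at its pachytene level could give no UMI, so these counts of libraries do not show absence before pachytene. The 107 Sertoli-like cells of WT testis, a somatic class, held Prss42 and Prss45 at 66.7 CPM each (24.5 to 145, exact Poisson 95% interval). Prss56 stood there at 77.9 CPM (31.3 to 160) and Prss44 at 11.1 CPM (0.282 to 62.0). The pachytene means of Prss42, Prss45 and Prss56 lie within these intervals and that of Prss44 above its own. The part of free RNA or doublets in the pachytene levels was not tested.

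Prss42, Prss44, Prss45 and Prss56 were the 4 members called higher in pachytene than in leptotene/zygotene, with 4 called lower. Among all 17036 genes 6.09% were called higher and 3.77% lower. The log2 fold changes were 6.86 ± 1.85 for Prss44 (adjusted p = 0.00433), 3.17 ± 0.98 for Prss45 (0.0166), 2.98 ± 1.00 for Prss42 (0.0342) and 2.98 ± 1.00 for Prss56 (0.0347). That of Prss44 is set against 0 UMIs and is no bound. Prss43 had 51.5 and 95.05 ± 34.5 CPM (pachytene 31.2 to 139) and missed the threshold (2.22, adjusted p = 0.0653), although it was called higher under 6 alternatives, among them edgeR's own filter on low counts (2.45), a coarser clustering (3.28) and the fit without WT replicate 2 (2.61), at 2.45 to 3.37. Prss48 had 26.3 and 34.0 ± 12.2 CPM (1.79, adjusted p = 0.462). The leptotene/zygotene class rests on few cells. In counts simulated from these libraries, with 200 of 16463 genes changed by 2 on the log2 scale, 15.7% of the genes called in this comparison were false. That share depends on how many genes change, so it does not give the share in the data. The scaling of this comparison is uncertain: with DESeq2's size factors, which moved the median of all genes from 0.45 to -0.88, 0 members were called higher and 8 lower, and with library totals alone 1 and 4. Prss42, Prss44, Prss45 and Prss56 then had log2 fold changes of 1.99, 2.62, 2.18 and 1.98 with DESeq2 and adjusted p-values of 0.161, 0.0682, 0.12 and 0.162. Without WT replicate 11, 10 or 8 the called members numbered 3, 5 and 5 in place of 8, and without replicate 11 the changes were 6.66 (Prss44), 2.49 (Prss45), 2.42 (Prss42) and 2.29 (Prss56), none of them called.

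The members called lower in pachytene, apart from Prss50, were spermatid genes: Prss52 (-2.84 ± 0.85), Prss37 (-2.64 ± 0.62) and Prss58 (-2.60 ± 0.68). Their leptotene/zygotene levels of 81.8, 131 and 105 CPM (0 in the lowest library for each) stood beside 122, 211 and 100 CPM in the 107 Sertoli-like cells of the same WT testes. In Mlh3 testis, which held no spermatid class, the leptotene/zygotene cells held 0 UMIs of Prss37, Prss52 and Prss58 among 57738 UMIs, and its 178 Sertoli-like cells held 0, 0 and 3.83 CPM. The part of free RNA or doublets in the WT levels was not tested. Without WT replicate 8 the changes of Prss37 and Prss52 were -1.77 for each and no longer called, and without replicate 11 that of Prss58 was -1.94.

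Prss39, Prss40, Prss46, Prss21 and Prss54 were first called higher at the meiotic division. Prss39 and Prss40, known as TESP1 and TESP2, proteases of the sperm acrosome, rose from 102 ± 40.6 to 540 ± 133 CPM (division libraries 250, 539 and 725 as lowest, median and highest) and from 14.2 ± 12.9 to 109 ± 32.0 CPM (44.1, 113 and 146). In leptotene/zygotene Prss39 stood at 223 ± 74.8 CPM (136 to 315, 14 UMIs), above pachytene in 4 of 4 libraries (-0.50, adjusted p = 0.688, but called lower in pachytene by DESeq2, -1.19). Prss40 stood there at 44.6 CPM (0 to 144, 4 UMIs, -2.24 in DESeq2 and called). WT Sertoli-like cells, a somatic class, held 200 CPM of Prss39 (119 to 316) and 55.6 CPM of Prss40 (18.1 to 130). The leptotene/zygotene means of both genes lie within these intervals, and the part of free RNA or doublets in them was not tested. Prss46, a neighbour of Prss45, rose from 12.2 ± 10.1 CPM (0 to 29.2) to 181 ± 63.9 CPM (102, 163 and 297), with no overlap between the 9 pachytene and 10 division libraries. Prss21, testisin, a membrane-anchored protease of germ cells, rose from 62.4 ± 16.9 (40.4 to 97.4) to 265 ± 77.6 CPM (110, 287 and 325), again without overlap. These 4 genes were higher at division in 8 of 8 libraries that held both classes.

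In all, 9 members were called higher at division than in pachytene and 0 lower, where 23.2% of all genes were called higher and 12.9% lower. An unadjusted p under 0.05 was reached by 10 members, and by 42.9% of all genes. The log2 fold changes were 4.08 ± 0.28 for Prss46 (adjusted p = 1.27e-44), 3.26 ± 0.29 for Prss40, 2.80 ± 0.17 for Prss39, 2.54 ± 0.19 for Prss21 and 2.46 ± 0.38 for Prss54. Prss42 rose further, from 83.7 to 164 ± 66.1 CPM (51.1, 177 and 263, 1.41 ± 0.20), and Prss56, a gene better known from the eye, to 127 ± 41.3 CPM (0.95 ± 0.20), each in 8 of 8 libraries. Prss47 went from 10.3 to 17.4 CPM (1.28 ± 0.44, not called without WT replicate 8, 1.05, in DESeq2, 1.09, without the library block, 1.21, or with library totals alone, 0.97) and Prss58 from 15.8 to 23.7 CPM (0.88 ± 0.37, adjusted p = 0.0476), a call that leaving out any of 9 libraries ended (0.72 to 0.89). Prss43, Prss44 and Prss45 had log2 fold changes of -0.40, -0.39 and 0.13 and did not pass. DESeq2 called 7 higher and 1 lower, and library totals alone 7 and 2, the lower ones being Prss43 (-0.66 and -0.73) and, with totals alone, Prss44 (-0.72). With edgeR's own filter on low counts 7 were called higher and 2 lower, again Prss43 and Prss44 (-0.62 each).

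Between division and round spermatids the family split, with 8 members called higher and 7 lower, where 27.8% and 21.8% of all genes were. The rises belonged to Prss37, known to bear on ADAM3 maturation and male fertility, Prss51, Prss52 and Prss55, a cluster on chromosome 14 of which Prss55 encodes an anchored sperm protease needed for fertility, and Prss54 and Prss58. Prss37 went from 15.6 CPM (3.26 to 37.6) to 321 ± 116 CPM (90.5, 318 and 520), Prss55 from 11.1 (3.56 to 21.7) to 196 ± 60.1 CPM (136, 174 and 348), Prss52 from 11.49 (0 to 30.4) to 141 ± 53.6 CPM (78.5, 143 and 284), and Prss51 from 3.23 (0 to 9.41) to 69.6 ± 46.1 CPM (27.1, 56.9 and 204). No round spermatid library overlapped a division library for these 4 genes. Prss58 went from 23.7 (12.0 to 51.5) to 160 ± 73.5 CPM (81.4, 143 and 359), also without overlap.

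The log2 fold changes to round spermatids were 4.85 ± 0.20 for Prss37 (adjusted p = 9.21e-126), 4.44 ± 0.32 for Prss51, 4.43 ± 0.22 for Prss55, 4.02 ± 0.23 for Prss52 and 3.18 ± 0.20 for Prss58, each in 10 of 10 libraries. Prss54 began earlier, with 8.04 CPM in pachytene, 52.4 ± 47.3 at division (8.86, 40.9 and 162) and 124 ± 23.3 in round spermatids (75.0, 118 and 172), called higher at both steps (1.95 ± 0.18 at the second). At the first step it was higher in 6 and lower in 2 of 8 libraries, and the pachytene range (0 to 29.2 CPM) overlapped that of division. Prss23, a protease also made in somatic tissues, was rare throughout, with 30 UMIs in round spermatids against 1 at division (3.53 ± 0.70).

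The members called lower were Prss42, Prss44, Prss56, Prss43, Prss21, Prss45 and Prss38. Prss42 dropped from 164 to 12.99 ± 7.00 CPM (4.06 to 28.2), a change of -3.13 ± 0.20, and Prss44 from 45.7 ± 19.9 to 7.31 CPM (-2.36 ± 0.30). Prss56, Prss43 and Prss21 fell by less (-1.55, -1.53 and -0.97), to 29.0, 15.5 and 94.6 CPM. Prss42, Prss43, Prss45, Prss56 and Prss21 were lower in round spermatids in 10 of 10 libraries. Prss45 kept 40.8 ± 11.6 CPM (-0.49 ± 0.18, -0.42 to -0.44 and not called without WT replicate 4, 6 or 9), and Prss38, with 10.6 and 3.42 CPM, fell by 1.06 on the log2 scale (a call that leaving out any of 4 libraries ended, -0.88 to -1.05).

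Prss39, Prss40 and Prss46 were not called between division and round spermatids, where they stood at 396 ± 102, 88.7 ± 20.6 and 109 ± 44.2 CPM. Their log2 fold changes against division were 0.04, 0.16 and -0.08. In CPM they were lower in round spermatids in 10, 8 and 6 of 10 libraries. For Prss39 and Prss46 this depended on the scaling and on the libraries. With library totals alone, which moved the median of all genes from 0.10 to -0.28, they were called lower (-0.43 and -0.55) and 8 members were called higher and 12 lower in all. Without the 2 enzymatic WT libraries they were called higher (0.21 and 0.38), and at a Leiden resolution of 1, a coarser clustering, Prss46 was called higher (0.72).

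The last step, from round to elongating spermatids, raised the late members again. Prss58 reached 478 ± 115 CPM (254, 447 and 652), Prss55 340 ± 80.9 CPM (221, 328 and 491), Prss37 388 ± 131 CPM (179, 421 and 614), Prss52 234 ± 61.2 CPM (134, 252 and 305) and Prss51 153 ± 47.9 CPM (29.8, 159 and 199). Prss58 and Prss55 were higher in 11 of 11 libraries, Prss51 and Prss52 in 10 and Prss37 in 9, although the ranges of the classes overlapped. The log2 fold changes were 2.06 ± 0.13 for Prss58 (adjusted p = 5.19e-56), 1.68 ± 0.15 for Prss51, 1.22 ± 0.13 for Prss55, 1.19 ± 0.13 for Prss52 and 0.70 ± 0.12 for Prss37.

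Prss39 rose as well, to 525 ± 97.5 CPM (0.82 ± 0.12), and Prss40 to 101 ± 33.6 CPM (0.63 ± 0.15). Prss42 was called higher from a low level (12.99 to 16.7 CPM, 0.94 ± 0.28), a call that turned to -0.26 at a coarser clustering. The members called lower were Prss46, which fell to 31.8 ± 11.47 CPM (16.8 to 47.9, -1.60 ± 0.18), Prss54 to 58.3 ± 33.7 CPM (-0.86 ± 0.16), Prss21 to 38.3 ± 15.6 CPM (-0.83 ± 0.17) and Prss56 to 14.3 CPM (-0.61 ± 0.25), the last a call that leaving out any of 8 libraries ended (-0.47 to -0.65). Thus 8 members were called higher and 4 lower, beside 14.6% and 20.2% of all genes. With DESeq2, in which Prss54 (-0.55, adjusted p = 0.0823) and Prss56 (-0.31) were not called, the counts were 9 and 2, and with library totals alone 6 and 6, where the medians of all genes were 0.42 and -0.42 against -0.08, and Prss40 and Prss42 (0.21 and 0.53) were not called.

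Finer clusters within the spermatid classes ordered the late members further. Values here are summed over the WT cells of a cluster, with exact Poisson 95% intervals that cover counting error only, and as descriptions they carry no test. In the round spermatid cluster with the fewest elongating-stage transcripts (798 cells) Prss37 stood at 88.3 CPM (76.9 to 101), and in the cluster led by Hemgn, Tmco5b and Fam71a (716 cells) at 698 CPM (659 to 738). There Prss58 went from 27.5 to 327 CPM, Prss52 from 29.1 to 306 CPM, Prss51 from 17.2 to 141 CPM and Prss55 from 98.9 to 312 CPM. Prss46 went the other way, from 188 CPM (172 to 206) to 33.9 CPM (25.8 to 43.7), as did Prss54 (143 to 91.9 CPM) and Prss56 (44.3 to 14.4 CPM), while Prss39 stayed at 444 and 379 CPM. In the other larger WT clusters of the class, of 774 and 124 cells, Prss37 stood at 255 and 254 CPM, Prss58 at 166 and 134, Prss52 at 103 and 120, Prss51 at 35.2 and 120, Prss55 at 178 and 147 and Prss46 at 120 and 214 CPM.

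Among elongating spermatids, the clusters led by Tnp1 and Tnp2, genes of the transition proteins, were highest in the late members. In one of 841 cells Prss58 stood at 680 CPM, Prss37 at 581, Prss55 at 453, Prss52 at 367 and Prss51 at 243 CPM. Of these genes only Prss37 stood below its level in the round spermatid cluster led by Hemgn. In the clusters led by Prm2 and Oaz3 the same genes were lower: Prss58 173 and 96.1 CPM, Prss37 116 in each, Prss55 163 and 78.8, Prss52 31.4 and 51.7, and Prss51 29.7 and 32.0 CPM. Prss39 kept 664 and 369 CPM there.

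In whole testis, where every barcode of a library was summed, the members' UMIs made up 1826 CPM in WT, 1973 in Cul4a, 1619 in CNP and 744 in Mlh3. Such sums mix cell types, so fewer cells of a type and less RNA per cell cannot be told apart. In Mlh3 testis, in which meiosis stops before the spermatid stage, the spermatid members Prss37, Prss51, Prss52, Prss54 and Prss55 held 0 or 1 UMI each and Prss58 was low, while Prss42, Prss43, Prss44 and Prss45 were detected. Of 30 members tested against WT, 6 were called higher and 13 lower, beside 32.7% and 28.6% of all genes.

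**Figure D3:**
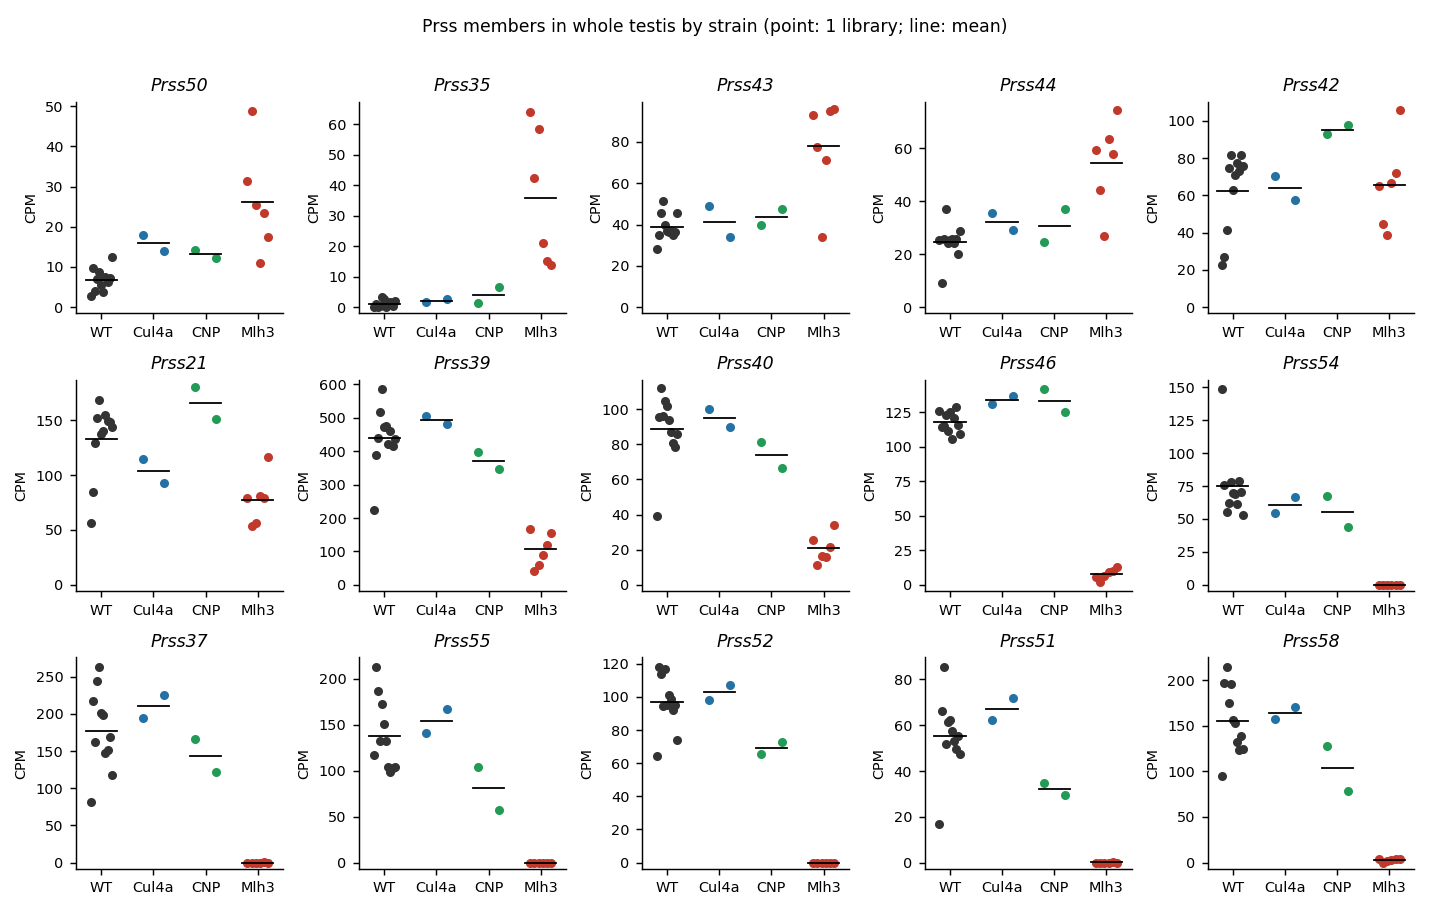
Whole-testis level of 15 members in CPM (y axis, linear, own scale in each panel) by strain (x axis). Each point is 1 library (11 WT, 2 Cul4a, 2 CNP, 6 Mlh3) and the line is the mean. Mlh3 points of Prss37, Prss51, Prss52, Prss54 and Prss55 lie at 0 or within 0.321 CPM of it, while those of Prss42 overlap WT and those of Prss35 lie above it.

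No UMI of Prss52, Prss54 or Prss55 was found among the 15751953 UMIs of the 6 Mlh3 libraries, where WT libraries held 64.4 to 118, 53.0 to 148 and 98.2 to 213 CPM. With 3 UMIs over the group as the limit that a count of 0 allows, they were at least 509-fold, 357-fold and 686-fold lower in Mlh3 testis, and at least 304-fold, 213-fold and 410-fold lower without Mlh3 replicate 6, the deepest library. Prss37 and Prss51 held 1 UMI each, against 4784 and 1470 in WT, ratios of 2869 (95% interval 515 to 113305) and 881 (158 to 34816). Prss58 was the exception among the late members, since 5 of 6 Mlh3 libraries held some of it, 0 to 3.85 CPM (mean 2.51 ± 1.51) against 155 ± 36.8 CPM in WT (-6.17 ± 0.28).

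Prss46, Prss39, Prss40 and Prss21 were lower but present. Prss46 stood at 2.22 to 13.1 CPM in Mlh3 (median 8.02) against 106 to 129 CPM in WT (-4.15 ± 0.21), Prss39 at 42.2 to 168 against 224 to 587 CPM (-2.55 ± 0.25) and Prss40 at 11.1 to 34.1 against 39.2 to 112 CPM (-2.53 ± 0.22). The Mlh3 and WT libraries did not overlap for these 3 genes. Prss21, with 77.6 ± 22.7 against 133 ± 33.2 CPM, overlapped and was called lower (-1.28 ± 0.21). Prss47 (-1.10 ± 0.32, -0.63 and not called with library totals alone), Prss23 (-1.27 ± 0.50, not called without Mlh3 replicate 6, -1.04, or with library totals alone, -0.81) and Prss2 (0 against 5 UMIs, a call that leaving out any of 5 libraries ended) completed the lower calls. In Mlh3 Leydig-like cells, a somatic class, Prss39 was found at 107 CPM (91 UMIs), close to its 106 CPM in whole Mlh3 testis. The part of free RNA in these levels was not tested.

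Prss43 and Prss44 were called higher in Mlh3 than in WT testis. Prss44 stood at 54.4 ± 16.6 against 24.6 ± 6.63 CPM (0.64 ± 0.21) and Prss43 at 77.9 ± 23.7 against 38.8 ± 6.54 CPM (0.46 ± 0.18). Both calls depended on the Mlh3 libraries kept: Prss43 fell to 0.15 to 0.36 and lost the call without Mlh3 replicate 1, 4, 5 or 6, and Prss44 to 0.36 to 0.45 without replicate 1, 4 or 5. Without the enzymatic WT libraries they were 0.18 and 0.33 and not called, while with library totals alone, which moved the median of all genes from 0.16 to 0.62, they were 0.99 and 1.15. Prss42 (65.5 against 62.5 CPM, -0.44), Prss45 (56.1 against 54.7 CPM, -0.43), Prss48 and Prss56 (75.1 against 65.2 CPM) were not called, but Prss42 and Prss45 were called lower under several alternatives. These were the fits without the enzymatic WT libraries (-0.82 and -0.72), in HiSeq libraries of mechanical dissociation (-0.76 and -0.62), with edgeR's own filter on low counts (-0.66 and -0.64), with Mlh3 replicates 2 and 3 summed (-0.62 and -0.59) and without Mlh3 replicate 1 (-0.69 and -0.66), 5 (-0.65 and -0.72) or 6 (-0.67 and -0.55). Prss45 was also called lower in DESeq2 (-0.46) and without Mlh3 replicate 4 (-0.71). Library totals alone gave 8 higher and 10 lower members. Prss50 was higher in Mlh3, at 11.03 to 48.8 CPM against 2.80 to 12.5 CPM (1.21 ± 0.25, adjusted p = 8.71e-05). Markers of earlier germ cells were also higher: spermatogonia markers held 81.9 to 517 CPM in Mlh3 against 22.5 to 67.9 CPM in WT (14 of 14 detected in both), leptotene/zygotene markers 584 to 1282 against 432 to 946 CPM and pachytene markers 3817 to 6192 against 2131 to 3962 CPM (11 of 11 detected in each). Their part in the level of Prss50 was not tested.

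The largest rise was that of Prss35, from 0 to 3.22 CPM in WT to 13.9 to 64.1 CPM in Mlh3 (4.06 ± 0.41, adjusted p = 5.77e-10), without overlap. In WT telocyte-like cells Prss35 stood at 468 CPM (7 UMIs in 22 cells), and in Mlh3 at 452 CPM in telocyte-like (13 UMIs in 31 cells), 88.1 CPM in Leydig-like (75 UMIs in 578 cells) and 42.1 CPM in Sertoli-like cells (11 UMIs in 178 cells). Somatic marker lists, with all markers detected in both strains, went different ways. Leydig markers held 1336 to 9180 CPM in Mlh3 against 0 to 390 CPM in WT, telocyte markers 204 to 365 against 5.6 to 109 CPM, and Sertoli markers 1056 to 5326 against 219 to 643 CPM. Macrophage markers were higher too (79.3 to 852 against 14.0 to 41.6 CPM). Peritubular myoid markers (6.31 to 89.8 against 216 to 359 CPM) and T lymphocyte markers (4.98 to 11.9 against 14.0 to 37.3 CPM) were lower. Endothelial (4.42 to 9.67 against 5.43 to 16.1 CPM) and erythroid markers (35.5 to 610 against 0 to 88.7 CPM) overlapped. The part of these cell types in the rise of Prss35 was not tested. Prss36 was also higher (1.26 to 11.1 against 0 to 1.05 CPM, 2.18 ± 0.54), as was Prss8, prostasin, with 6 UMIs against 0 (3.20 ± 1.07, no bound). Spermatid markers moved with the falls: round spermatid markers held 160 to 294 CPM in Mlh3 against 1864 to 2508 CPM in WT, with Catsper4, Tex29 and Slc25a41 at 0, and elongating markers 532 to 1065 against 31331 to 60004 CPM, with Prm3 and Gapdhs at 0.

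The labels give a B6;129 background for Mlh3 and Cul4a mice alike. Against Cul4a 1 member was called higher and 15 lower in Mlh3, beside 20.1% and 26.8% of all genes. With library totals alone the counts were 3 and 9, with sequencing platform as a covariate 1 and 12, and in cells that pass the filters 2 and 9, where Prss2, Prss21 (-0.51), Prss38 (-0.68), Prss41 (-0.63), Prss45 (-0.55) and Prss47 (-0.79) lost their calls. The fitted log2 fold changes were -4.34 ± 0.25 for Prss46, -6.24 ± 0.32 for Prss58, -2.69 ± 0.32 for Prss39 and 3.49 ± 0.66 for Prss35, while Prss50, higher than in WT, stood at 0.07 ± 0.35 and was not called. Prss21 (-0.95), Prss41 (-1.04) and Prss38 (-0.87) lost the call without Cul4a replicate 1, Prss45 without replicate 1 or 2 (-1.002 and -1.024), Prss47 without Cul4a replicate 2 (-1.01) or Mlh3 replicate 2 (-0.97), Prss38 also without Mlh3 replicate 2 (-0.81), and Prss2 when any of 6 libraries was left out (-1.85 to -2.99). The Mlh3 libraries stand in both comparisons.

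In whole testis of Cul4a and CNP mice no member was called. Against WT 1.75% of all genes were called higher and 0.308% lower in Cul4a, and 0.0812% and 0.462% in CNP. By edgeR 4 of 30 members had an unadjusted p under 0.05 in Cul4a, beside 15.9% of all genes, with log2 fold changes above 0: Prss36 (1.36), Prss50 (1.14, adjusted p = 0.0528), Prss41 (0.89, adjusted p = 0.0819) and Prss38 (0.79). DESeq2 called 1 of them, Prss41 (0.82). Prss50 was called higher with sequencing platform as a covariate (1.15), with Mlh3 replicates 2 and 3 summed (1.10) and without the enzymatic WT libraries (1.085). In HiSeq libraries of mechanical dissociation Prss50 (1.03) and Prss41 (0.81) were called. In CNP 5 of 30 did, beside 9.69% of all genes: Prss38 (1.02), Prss51 (-0.95), Prss55 (-0.92), Prss58 (-0.75) and Prss52 (-0.62), of which DESeq2 called Prss51 (-1.04) and Prss52 (-0.71). The CNP libraries held 29.4 and 34.8 CPM of Prss51, within the WT range of 16.8 to 85.4 CPM, and 56.9 and 104 CPM of Prss55 beside 98.2 to 213 CPM. Elongating spermatid markers held 18254 to 32392 CPM in CNP, and their part in these values was not tested. With 2 libraries a group the precision is low: in counts simulated from these libraries, 61% of genes changed by 2 on the log2 scale were recovered for CNP.

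Within pachytene cells, 2 of 24 tested members were called higher and 7 lower in Mlh3 against WT, beside 4.43% and 7.01% of all genes. Prss42, Prss43, Prss44 and Prss45 were not among them. Prss43 stood at 54.7 to 169 CPM in Mlh3 and 31.2 to 139 CPM in WT, Prss44 at 67.3 to 133 and 31.2 to 130 CPM, Prss42 at 54.7 to 79.9 and 53.5 to 140 CPM, and Prss45 at 22.2 to 109 and 62.4 to 133 CPM, all with overlapping ranges. Those called lower were Prss55 (0 against 5.78 to 42.8 CPM), Prss37, Prss52, Prss51, Prss54, Prss58 and Prss39 (16.8 to 79.9 against 46.8 to 151 CPM, -1.55 ± 0.25). For Prss51, Prss52, Prss54 and Prss55 the Mlh3 pachytene cells held 0 UMIs, so the fitted changes are no bound, and Prss37 was found in 1 library only (1.09 CPM). Elongating spermatid markers in pachytene cells went the same way, 723 to 1003 CPM in Mlh3 against 4348 to 9977 CPM in WT, with Prm2, Prm3, Tnp1, Smcp, Odf1, Gapdhs, H1fnt and Cabs1 at 0 in Mlh3. The clusters that made up the class also differed between the strains. One held 46.4% of the Mlh3 and 34.9% of the WT pachytene cells, and another 42.4% and 57.9%. The part of these clusters in the Mlh3 calls, or of free spermatid RNA in the WT levels, was not tested.

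The members called higher in Mlh3 pachytene cells were Prss50 (0 to 21.1 against 0 to 5.78 CPM, 2.95 ± 0.79) and Prss35 (0 to 21.0 CPM against 0, 4.29 ± 1.45, 3.79 and 4.09 and not called without Mlh3 replicate 3 or 4). Leydig markers in these cells held 97.7 to 2325 CPM in Mlh3 and 0 to 53.5 CPM in WT. Sertoli markers held 235 to 1846 against 98.7 to 218 CPM and telocyte markers 19.1 to 126 against 0 to 27.3 CPM. Spermatogonia markers held 36.9 to 126 against 10.7 to 46.8 CPM (14 of 14 detected in Mlh3, with 7 of 14, Kit and Sohlh1 among them, at 0 in WT), and leptotene/zygotene markers 808 to 1352 against 706 to 1098 CPM. Prss50 itself stood at 29.4 CPM in Mlh3 Leydig-like (25 UMIs in 578 cells) and 11.5 CPM in Sertoli-like cells (3 UMIs in 178 cells). The 31 Mlh3 telocyte-like cells held 0 UMIs of it. The Leydig-like level lies above the highest Mlh3 pachytene library, 21.1 CPM, although its exact Poisson 95% interval includes that value. The part of somatic cells, earlier germ cells or free RNA in the pachytene levels was not tested. Without Mlh3 replicate 6 the change of Prss58 was -1.55 and not called. With the replicate block, and with cells filtered on UMIs and genes only, 6 members were called, all lower. Prss50 (5.81 under the block, adjusted p = 0.0506, and 2.21 under the filter, adjusted p = 0.0805) and Prss35 (4.76 and 4.15) were not called in either, nor were Prss54 under the block (-4.70) and Prss58 under the filter (-1.61), with fold changes of the same direction. In libraries of at least 50 cells Prss35 was not called (4.06), and with edgeR's own filter on low counts, which left 7 of the 24 members to test, 1.

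In Cul4a pachytene cells Prss50 alone was called higher (20.3 and 27.7 CPM against 0 to 5.78 CPM, 3.81 ± 0.77, adjusted p = 0.00172), beside 0.516% of all genes higher and 0.0765% lower. The call was lost without Cul4a replicate 1 (3.59), in DESeq2 (3.53, adjusted p = 0.147) and with cells filtered on UMIs and genes only (3.10, adjusted p = 0.0505), where Prss56 was the member called (1.18). Spermatogonia markers in these cells held 52.5 to 56.97 CPM against 10.7 to 46.8 CPM in WT, and 1 cluster held 62.0% of the Cul4a and 34.9% of the WT pachytene cells. The part of either in the level of Prss50 was not tested. In CNP pachytene cells 0 members were called by edgeR, 0 had an unadjusted p under 0.05 and 0 were called by DESeq2, beside 0.00638% and 0.472% of all genes. Mlh3 testis also held 34 cells of the division class, 21 of them from 1 library, with 61700 UMIs. They contained Prss39 at 438 CPM, Prss21 at 227, Prss56 at 178, Prss40 at 113, Prss44 and Prss45 at 97.2, Prss42 at 81.0 and Prss46 at 64.8 CPM, and no UMI of Prss37, Prss51, Prss52, Prss54, Prss55 or Prss58, where 3 UMIs would be 48.6 CPM.

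In round spermatids Prss37, Prss51, Prss52 and Prss58 were called lower and Prss46 and Prss56 higher in Cul4a than in WT, calls that were lost or turned when the class was drawn in other ways. Prss51 stood at 17.7 and 18.6 CPM in Cul4a against 27.1 to 204 CPM in WT (-1.88 ± 0.29), Prss58 at 57.3 and 62.9 against 81.4 to 359 CPM (-1.40 ± 0.26) and Prss52 at 50.9 and 65.7 against 78.5 to 284 CPM (-1.28 ± 0.26), each without overlap. Prss37 was also lower (157 and 192 against 90.5 to 520 CPM, -0.91 ± 0.26, -1.05 and -0.75 and not called without replicate 1 or 2). Prss46 was higher, 245 and 272 against 36.2 to 158 CPM (1.10 ± 0.22), as was Prss56, 60.7 and 82.0 against 0 to 47.5 CPM (1.15 ± 0.23). In all 4 members were called higher and 5 lower of 24, beside 9.43% and 5.55% of all genes, and DESeq2 gave 2 and 4. Prss41 (1.33), Prss50 (1.72) and Prss23 (-1.52), at 16.3, 4.69 and 1.98 CPM in Cul4a, were the others. Without Cul4a replicate 1 the calls numbered 4 and without replicate 2 they numbered 5. Prss23 (-0.99 and -2.46) and Prss50 (1.42 and 1.96) lost theirs without either replicate, Prss41 (1.17) and Prss56 (0.94) without replicate 1 and Prss52 (-1.08) without replicate 2.

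Division markers in round spermatids held 1357 to 1416 CPM in Cul4a against 516 to 988 CPM in WT, without overlap. Elongating markers held 21425 to 25568 against 24452 to 63680 CPM and round markers 4115 to 4464 against 3175 to 5049 CPM. Their part in the Cul4a calls was not tested. The clusters that made up the class also differed between the strains. One with 33.0% of WT round spermatids held 0.694% of those of Cul4a, and another held 61.9% in Cul4a and 0.166% in WT. That Cul4a cluster held Prss37 at 147 CPM, Prss58 at 43.6, Prss52 at 41.1, Prss51 at 12.6, Prss46 at 266 and Prss56 at 72.4 CPM, beside 88.3, 27.5, 29.1, 17.2, 188 and 44.3 CPM in the early WT cluster. In the cluster led by Hemgn, which held 29.6% of WT and 17.1% of Cul4a round spermatids, the strains were closer: Prss37 698 CPM (659 to 738) in WT and 656 CPM (549 to 778) in Cul4a, Prss58 327 (300.4 to 355) and 373 CPM (293 to 467), Prss52 306 (281 to 333) and 303 CPM (232 to 389), and Prss51 141 (124 to 160) and 104 CPM (64.6 to 159), with counting intervals that overlap. At a coarser clustering, a Leiden resolution of 1, the 4 late members were higher in Cul4a (Prss37 0.65, Prss52 0.45, Prss58 0.35 and Prss51 0.29, none called), and with cells filtered on UMIs and genes only they were also higher (0.77, 0.66, 0.54 and 0.48), Prss37 being called so (adjusted p = 0.037), while Prss46 stood at -0.11. Prss46 (0.27) and Prss56 (0.25) at resolution 1 and Prss56 (0.19) with the UMI and gene filter were not called. Under the replicate block Prss37 was at 0.20 and 2 members were called.

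**Figure D4:**
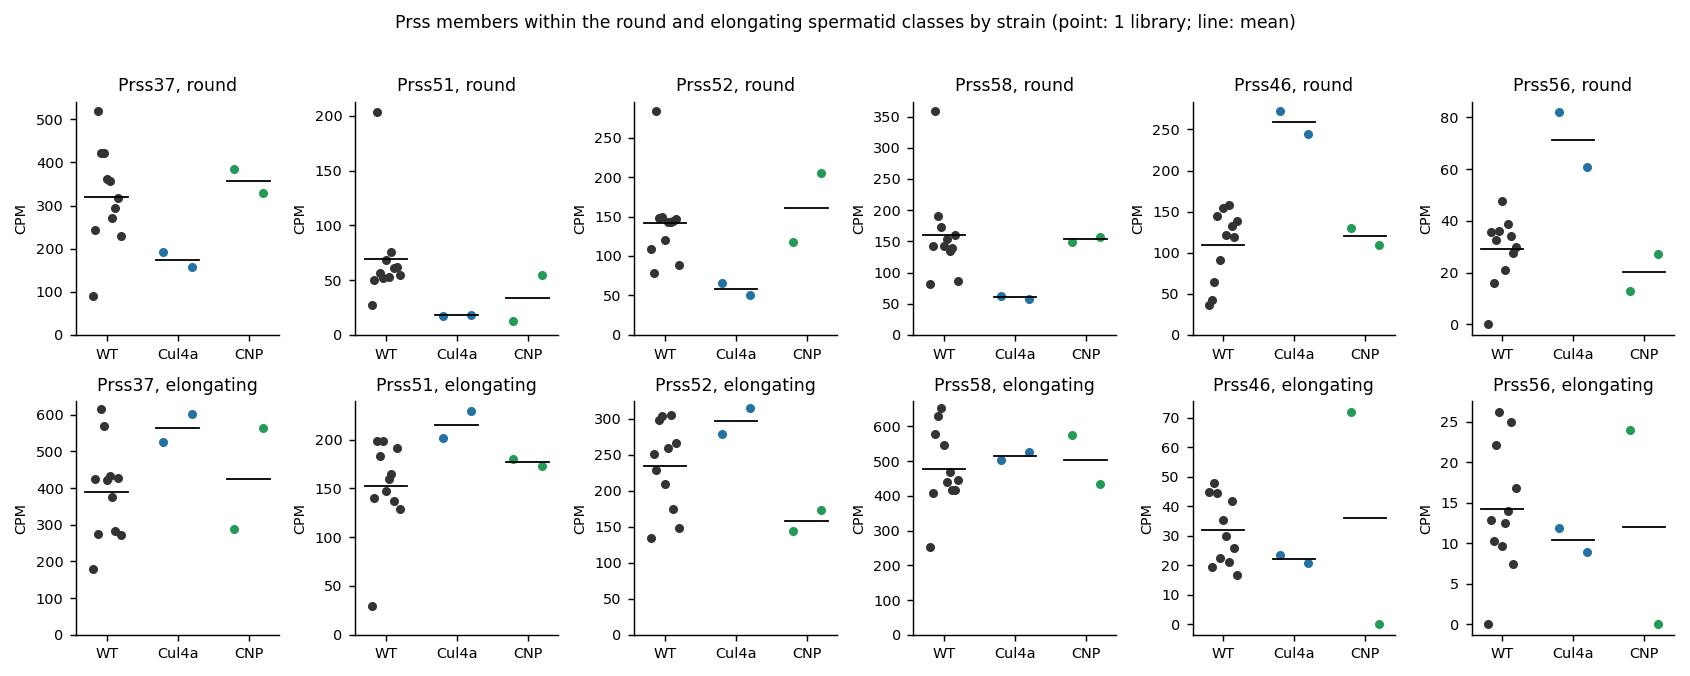
Level of Prss37, Prss51, Prss52, Prss58, Prss46 and Prss56 in CPM (y axes, linear) in round and elongating spermatids by strain (x axis). Each point is 1 library with at least 10 cells of the class (11 WT, 2 Cul4a, 2 CNP) and the line is the mean. In round spermatids the Cul4a points of Prss51, Prss52 and Prss58 lie below all WT points and those of Prss46 and Prss56 above, while in elongating spermatids both Cul4a points lie above every WT point for Prss51 only.

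In elongating spermatids of Cul4a mice 0 of 23 members were called, beside 4.94% of all genes higher and 0.938% lower. By edgeR 7 had an unadjusted p under 0.05, beside 20.3% of all genes (Prss37, Prss38, Prss42, Prss43, Prss51, Prss52 and Prss55), and DESeq2 called 0. Prss51 stood at 201 and 229 CPM, above the WT range of 29.8 to 199 CPM, and Prss37 at 524 and 600.4 CPM, within that of 179 to 614 CPM. Without the enzymatic WT libraries 5 members were called, Prss37 (0.69), Prss51 (0.58), Prss55 (0.53) and Prss38 (2.12) higher and Prss42 (-1.01) lower. Here too the clusters differed, 43.7% of the Cul4a cells and 2.11% of the WT cells lying in 1 of those led by Tnp1.

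CNP spermatids gave no call. In round spermatids 0 members were called by edgeR, 3 had an unadjusted p under 0.05 (Prss42, Prss51 and Prss55, beside 5.55% of all genes) and DESeq2 called 0, where edgeR called 0.0243% of all genes higher and 0.577% lower. Prss55 stood at 130 CPM in both CNP libraries, just below the WT minimum of 136 CPM, and Prss58 at 150 and 157 CPM within the WT range. In elongating spermatids, with 121 CNP cells, 0 were called by edgeR, 2 had an unadjusted p under 0.05 (Prss45 and Prss52, beside 4.67% of all genes) and DESeq2 called 0, where edgeR called 0% of all genes higher and 0.0328% lower. Prss58 stood at 434 and 575 CPM and Prss37 at 288 and 564 CPM there. The median of all genes lay at -1.45 in this contrast and at 0.41 with DESeq2, so the scaling of 2 small samples is uncertain.

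The sorted libraries have no replicates, so their levels are given as descriptions. Prss50 stood at 44.5 CPM (33.2 to 58.4, exact Poisson 95% interval) in day-7 spermatogonia, with 50 of its 52 UMIs in spermatogonia-like cells, and at 9.34, 7.63 and 4.22 CPM (1, 2 and 1 UMIs) in primary spermatocytes, secondary spermatocytes and spermatids. Prss36 was also found there, with all 29 of its UMIs (24.8 CPM) in spermatogonia-like cells, against 0, 0 and 1 UMI in the other sorts. Of the 28 UMIs of Prss35 in that library, 16 lay in 10 Sertoli-like cells, 9 in 3 telocyte-like cells and 2 in the 212 spermatogonia-like cells. The day-7 library held no UMI of Prss37, Prss39, Prss40, Prss46, Prss51, Prss52, Prss54, Prss55, Prss56 or Prss58, where 3 UMIs would be 2.57 CPM.

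The primary spermatocyte library held Prss21 at 317 CPM, Prss42 at 196, Prss46 at 131 and Prss43 at 112 CPM, although most of its cells fell in the erythroid cluster. The corresponding values were 187, 53.4, 160 and 22.9 CPM in secondary spermatocytes and 114, 37.9, 96.98 and 12.6 CPM in spermatids. Prss37 went from 9.34 CPM in primary spermatocytes to 279 and 287 CPM, Prss55 from 0 to 179 and 337 CPM, and Prss58 from 18.7 to 175 and 455 CPM. Prss39 stood at 271, 653 and 540 CPM, Prss40 at 18.7, 91.6 and 148 CPM, and Prss52 at 9.34, 183 and 148 CPM. Prss21 and Prss42 were thus highest in primary and Prss40 in the spermatid sort, while the WT class means of all 3 were highest at the division. Since most cells sorted as secondary spermatocytes lay in spermatid classes, that library does not date the rises before the round spermatid stage.

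The remaining members were rare. Prss38 and Prss41 were found throughout at low levels, in WT whole testis at 0 to 10.5 and 2.80 to 12.7 CPM, with their highest class means in leptotene/zygotene (62.4 CPM for Prss38 from 3 UMIs in 2 libraries, 34.1 CPM for Prss41 from 4 UMIs in 1 library). Prss2, Prss8, Prss12, Prss16, Prss22, Prss29, Prss30, Prss32, Prss33, Prss53 and Prss57 held 1 to 35 UMIs each over all libraries, which is too few to place them. Prss12 (neurotrypsin, a protease of synapses) and Prss16 (a thymus protease) are among them.

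Other genes of the same processes were taken from lists, whose counts stand beside the shares of all genes called given above for each comparison (23.2% higher and 12.9% lower at the division, 27.8% and 21.8% in round and 14.6% and 20.2% in elongating spermatids, 6.09% and 3.77% in pachytene, 32.7% and 28.6% in Mlh3 testis). Of 30 listed genes of the acrosome and the sperm receptors for the egg coat, 29 were tested. At the division 27 were called higher and 1 lower (median 2.07 on the log2 scale, all genes 0.27), led by Spam1 (3.24), Lyzl4 (3.04), Spaca1 (2.87) and Zp3r (2.79), in round spermatids 22 and 4 (median 2.78), and in elongating spermatids 3 and 22 (median -1.74), where the late Prss members rose. In Mlh3 testis 1 was higher and 26 lower (median -9.81), led by Spaca3, Spaca7, Lyzl6 and Cylc2. Of the 20 listed genes of ADAM3 maturation, 19 were tested, 13 higher and 3 lower at the division (Tex101, a surface protein of germ cells, -4.20), 7 and 5 in round spermatids (Calr3, a chaperone, 4.24, and Pmis2, 4.22), and 3 and 14 in Mlh3 testis.

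Of 23 other serine proteases, 13 were tested across the WT classes. Pachytene had 2 called higher and 0 lower, Tmprss12 (7.11) and Acr, acrosin (2.04), the division 1 higher and 2 lower (Acr 0.93, Tmprss12 -1.17, Pcsk7 -1.78), round spermatids 7 and 4, and elongating spermatids 2 and 3 (Klk1 2.67, Acr -1.92). In Mlh3 testis 7 of 19 were higher, led by Htra1 (4.34), and 4 lower, led by Pcsk1 (-5.46), beside 32.7% and 28.6% of all genes. Of 19 protease inhibitors, 12 were tested: 1 higher and 1 lower in pachytene (Spink2, an inhibitor of acrosin-like enzymes, 3.00, and Cst8 -1.97), 1 and 0 at the division, 4 and 3 in round spermatids (Cst8 4.25), and 5 and 2 in elongating spermatids. In Mlh3 testis 7 of 16 were higher and 4 lower, beside the same shares of all genes.

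Prss50 stands in the study's component of early meiotic prophase beside 3 other genes given as regulated by CTCFL, a germ-cell paralogue of the chromatin protein CTCF. The list of these 3 and Ctcfl was chosen on these same samples and is no independent evidence. It held 3 called lower and 0 higher in pachytene against leptotene/zygotene (Stra8 -6.15, Gal3st1 -6.07, Ugt8a -4.93, median -5.50).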

How the data were processed

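Single-cell libraries were made by Drop-seq from whole testis and 4 sorted populations. The authors aligned reads to mm10 with STAR 2.5.3a in the Drop-seq pipeline and deposited UMI counts per gene and cell barcode, 1 table a library, which were used here as deposited. Library depth ranged from 107117 to 9745302 UMIs, and intervals cover counting error only.

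Barcodes with at least 200 UMIs and 50 genes that passed the limits on library-wise UMIs and on mt-Rnr2 were kept (36622 of 48642). Counts were normalised per cell and square-root transformed, and 40 principal components, 20 neighbours and Leiden clustering (resolution 2, leidenalg 0.10.2) gave 46 clusters, of which 30 were named from fixed markers. Prss genes and listed genes were left out of clustering and markers. Counts were summed per library, or per library and class (at least 10 cells), and genes with at least 5 counts were tested with edgeR 4.0.16 (TMM, quasi-likelihood test, Benjamini-Hochberg over all genes, adjusted p of 0.05). The fit across WT classes had the library as a block. DESeq2 1.42.0, other filters, clusterings, scalings and left-out libraries were tried as alternatives, and those without the enzymatic WT libraries and with library totals alone were chosen after seeing the data. Tests were checked on simulated data. The labels do not say more of the replicates than that they are separate samples, so p-values measure the spread between these samples.

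The Prss members and the gene lists were chosen with earlier results of these data known. Members were named with values when called in any comparison or among the 15 of highest mean WT level, and up to 4 genes a list by the size of their change among those called. Replicate numbers did not pair samples of different strains (correlations of deviations -0.228 to 0.247).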

Additional observations from a re-analysis of the deposited data

Results flagged for a closer look

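Of 60 groups of 4 to 10 libraries tested for a library far from the rest, 7 had one, and chance flags about 1 in 20. In Mlh3 pachytene cells the highest library stood at 81.3 CPM for Prss21 (next 44.6), 133 CPM for Prss44 (next 83.5) and 17.8 CPM for Prss46 (next 7.39). In whole Mlh3 testis 1 library held 11.1 CPM of Prss36 (next 3.68). In WT, Prss42 reached 140 CPM in 1 pachytene library (next 94.9), and at the division Prss52 reached 30.4 CPM (next 14.7) and Prss58 51.5 CPM (next 32.9).

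Mlh3 and Cul4a testis, each set against the same WT libraries, differed by the test of Mlh3 against Cul4a in 1 fit for 16 members, beside 20.1% of all genes higher and 26.8% lower. In cells that pass the filters Prss2, Prss21, Prss38, Prss41, Prss45 and Prss47 were not called. The differences on the log2 scale were 3.49 for Prss35, -0.89 for Prss21, -0.91 for Prss38, -0.90 for Prss41, -0.85 for Prss45, -1.08 for Prss47, -2.69 for Prss39, -2.60 for Prss40, -4.34 for Prss46 and -6.24 for Prss58. Fitted values set against 0 or 1 UMI, which are no bounds, were -2.95 for Prss2, -11.3 for Prss37, -9.63 for Prss51, -11.4 for Prss52, -10.6 for Prss54 and -12.0 for Prss55.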

How the results depend on the processing

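Counts of called members moved as follows. In whole testis, where no member was called for Cul4a or CNP, Cul4a had 1 with DESeq2, sequencing platform as a covariate, Mlh3 replicates 2 and 3 (of the same age) summed, or no enzymatic WT libraries, and 2 in HiSeq libraries of mechanical dissociation, while CNP had 2 with DESeq2 and 1 with either restriction of the libraries. In pachytene cells Cul4a (1 in the report) had 0 with DESeq2 or edgeR's own filter and 2 in libraries of at least 50 cells, and Mlh3 (9) had 1 with edgeR's own filter, which tested 7 of the 24 members in these cells. In round spermatids Cul4a (9) had 1 at a Leiden resolution of 1 and 3 with cells filtered on UMIs and genes only. In elongating spermatids Cul4a (0) had 5 in HiSeq libraries of mechanical dissociation or without the enzymatic libraries, 2 in libraries of at least 50 cells, 4 at resolution 1 and 3 with the UMI and gene filter. Pachytene against leptotene/zygotene (8) had 5 with library totals alone. Apart from the fewer members tested under that filter, the cause was not tested.

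With the replicate block, 15 members were called in whole Mlh3 testis (19 without it), 16 for Mlh3 against Cul4a, 1 each for Cul4a and CNP, 6 in Mlh3, 1 in Cul4a and 0 in CNP pachytene cells, 2 in Cul4a and 0 in CNP round spermatids, and 0 in elongating spermatids. The numbers name samples only.

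Directions turned for Cul4a round spermatids at resolution 1 (Prss37 0.65, Prss51 0.29, Prss52 0.45, Prss58 0.35), with the UMI and gene filter (Prss37 0.77, Prss46 -0.11, Prss51 0.48, Prss52 0.66, Prss58 0.54) and under the replicate block (Prss37 0.20), and for Prss42 in elongating against round spermatids at resolution 1 (-0.26).

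With 1 library left out (a WT library in the comparisons of stages, a mutant library in those of strains, where WT libraries were not left out singly), called members numbered 17 to 20 (Mlh3 against WT), 11 to 17 (Mlh3 against Cul4a), 3 to 9 (pachytene against leptotene/zygotene), 7 to 9 (division), 13 to 16 (round), 11 to 12 (elongating), 8 to 9 (Mlh3 pachytene), 0 to 1 (Cul4a pachytene) and 4 to 5 (Cul4a round).

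Over 98 called member results, 1616 of 1810 pairs of a result and an alternative kept direction and call, 183 kept the direction and lost the call, and 11 turned, with 4 pairs left out for lack of an adjusted p in DESeq2. In simulated counts with 200 genes changed by 2 on the log2 scale, 43% were recovered between pachytene and leptotene/zygotene, where 15.7% of the genes called were false, and 100% between elongating and round spermatids, where 2.44% were. These false shares depend on the number of genes changed and do not give those in the data.

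Calls ended by other settings, beside those in the report, were these. Prss58 between pachytene and division was also not called in DESeq2, in any restriction of the libraries, with other count filters or cell filters, with library totals alone or without the library block (0.52 to 0.92). Prss56 between round and elongating spermatids was not called in DESeq2 or under 6 other settings (-0.31 to -0.62). Prss50 between division and round spermatids was not called in HiSeq libraries (1.79), at resolution 1 (1.97) or in libraries of at least 50 cells (2.05), and Prss38 with the UMI and gene filter (-0.87). In pachytene against leptotene/zygotene Prss42 (2.97) and Prss56 (2.96) were not called without a count filter, Prss42 without the library block (2.90), and Prss56 (2.65) and Prss52 (-2.06) with the UMI and gene filter. In whole Mlh3 testis Prss43 and Prss44 were not called in HiSeq libraries (0.20 and 0.39), with replicates 2 and 3 summed (0.25 and 0.44) or with edgeR's own filter (0.25 and 0.43), Prss2 under 8 settings (-1.78 to -2.81), and Prss8 (3.13), Prss23 (-1.19) and Prss43 (0.39) under the replicate block. In Cul4a round spermatids Prss23 was not called under 6 settings (-0.12 to -1.63), Prss41 in DESeq2 (1.34), Prss50 at resolution 1 (1.95), and Prss41, Prss50, Prss51, Prss52, Prss56 and Prss58 under the replicate block (2.13, 0.36, -0.91, -0.49, 2.00 and -0.74).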
